A study of Arabidopsis thaliana with 15 samples.

Results

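The comparison described here sets one double mutant line of Arabidopsis thaliana, gyf1 gyf2-2, against another, gyf1 gyf2-1. It uses the 3 libraries labelled with each genotype, 6 of the 15 libraries in the series, and every gene with enough counts in the shared table, which is 20721 of 32833 genes. The other libraries, 3 each of gyf2, gyf1 and wild type (WT, Col-0), are used for the level of a gene outside the lines. All were mRNA libraries of whole seedlings aged 1 week, grown without treatment on medium containing 1% sucrose. Both lines carry the gyf1 mutation, and nothing in the labels tells if gyf2-1 and gyf2-2 are alleles or lines, which of them the single mutant carries, or which loci are mutated. The design text speaks of duplicates, 3 libraries per genotype were used, and nothing says that they came from separate cultures, so p-values measure the spread between these samples only. In such bulk samples, fewer cells of a type and less RNA per cell cannot be told apart.

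GYF domains are small protein modules that bind proline-rich sequences. In animals, GIGYF proteins with this domain act with cap-binding partners to repress the translation of mRNAs, and in Arabidopsis the GYF protein EXA1 is known for its part in virus infection and immunity. Phosphate starvation, which comes up below, is sensed in plants through SPX proteins, which hold back the transcription factor PHR1 while phosphate is plentiful. When phosphate runs low, PHR1 binds a short promoter element and switches on transporters, phosphatases, lipid-remodelling enzymes and the SPX genes themselves.

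The lines were close to each other. Between gyf1 gyf2-2 and gyf1 gyf2-1, 48 genes were called, 0.232% of the genes tested, with 33 higher (0.159%) and 15 lower (0.0724%) in gyf1 gyf2-2. A gene was called when its adjusted p was below 0.05 in edgeR's quasi-likelihood test with Benjamini-Hochberg adjustment over all genes tested. In the same fit, 5734 genes (27.7%) were called in gyf1 gyf2-2 against WT, 15.1% higher and 12.6% lower, and 5370 (25.9%) in gyf1 gyf2-1 against WT, 14.2% higher and 11.7% lower. These comparisons share libraries with the one between the lines, so their values are only set side by side below. The median log2 fold change between the lines was 0.01 over all genes, and for 15537 genes (75.0%) the 95% interval of the difference lay within a factor of 1.5 either way. At an unadjusted p below 0.05 there were 1539 genes (7.43%). The libraries of the lines did not overlap for any of the 48 called genes, nor for 2597 (12.5%) of all genes tested, and 15 of them differed by more than 1 on the log2 scale.

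**Figure D1:**
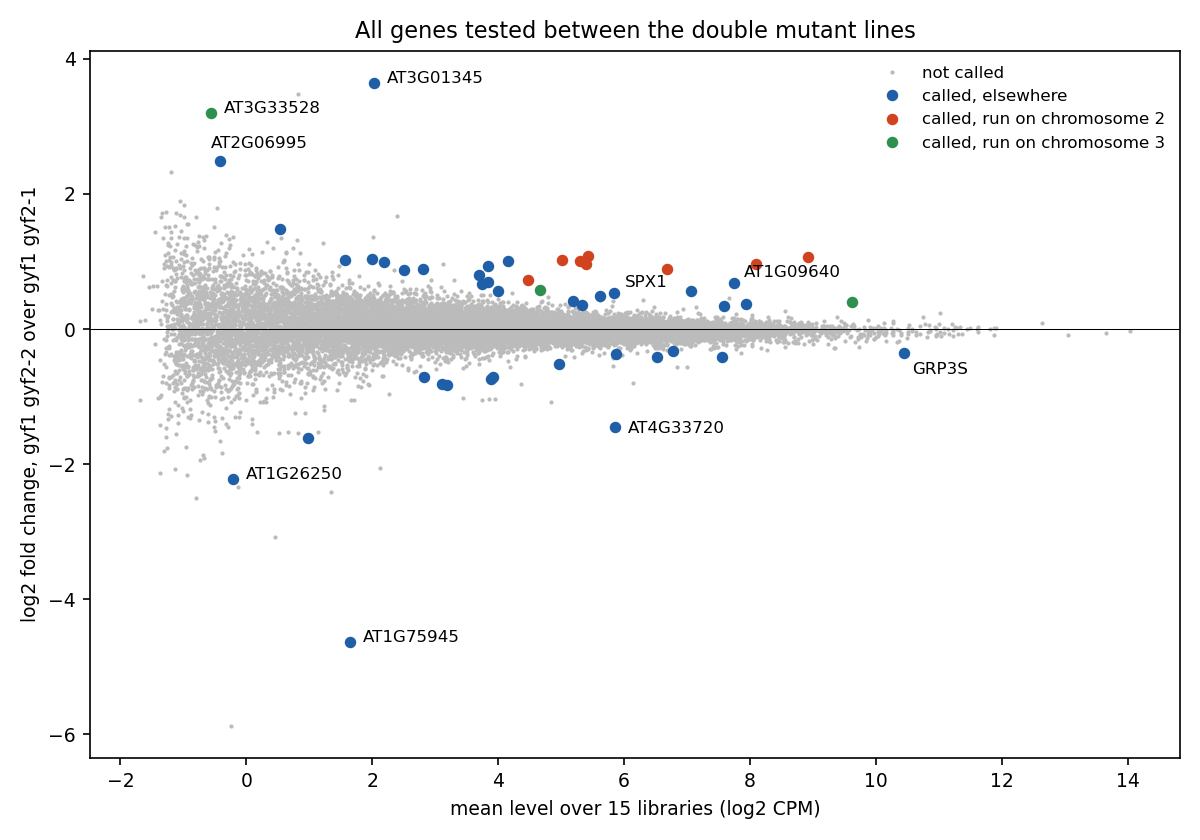
Log2 fold change of gyf1 gyf2-2 over gyf1 gyf2-1 (vertical axis) against the mean level over 15 libraries in log2 CPM (horizontal axis) for the 20721 genes tested. Grey points were not called, and coloured points are the 48 called genes, with the 8 genes of the run on chromosome 2 lying between 0.73 and 1.08.

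Libraries held 16567801 to 24681140 counts. Within each line, 1 library stood apart. Pairs that included gyf1 gyf2-2 replicate 2 differed with a chi-square per gene of 7.29 and 6.77, against 3.44 for the other pair, and pairs that included gyf1 gyf2-1 replicate 1 with 6.40 and 7.42, against 3.04. Without both of these libraries, 37 genes were called, 28 higher and 9 lower, and 29 of the 48 were among them. Calls also depended on other libraries. Leaving out gyf1 gyf2-1 replicate 3 left 21 calls, gyf1 gyf2-2 replicate 2 ended 21 of the 48, and 18 genes kept their call under all 22 alternatives tried. Those 18 are the 8 genes of the run on chromosome 2 and AT1G75945, AT1G09640, AT3G01345, AT4G33720, AT5G26270, AT5G62360, AT4G16260, GRP3S, SPX1 and WRKY53. Summed over each list, organ markers overlapped between the lines. Taken singly, the 19 root markers ranged from −1.19 to 0.63 in log2 fold change, with 0 called. At an unadjusted p below 0.05, 2 of them were lower (background 3.45%) and 0 higher (background 3.98%). Summed levels, in CPM (a gene's count per unit of TMM-scaled library size), were 3661 to 3879 in gyf1 gyf2-2 and 3665 to 3767 in gyf1 gyf2-1 for 19 root markers, 108 to 124 and 120 to 124 for 14 shoot meristem, leaf and stomatal markers, of which 1 was at 0 in each line, and 90754 to 105310 and 95772 to 104720 for 32 photosynthesis genes. For 17 seed maturation genes, of which 3 were at 0 in gyf1 gyf2-2 and 8 in gyf1 gyf2-1, the sums were 4.13 to 8.48 and 4.54 to 6.37.

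Since the mutated loci are not given, the 12 tested genes annotated with a GYF domain were looked at instead. Comparing the lines cannot show which genes are mutated in both. Against WT, 3 of the 12 were called higher and 3 lower in gyf1 gyf2-2 (background 15.1% and 12.6%). In gyf1 gyf2-1 the numbers were also 3 and 3 (background 14.2% and 11.7%). None of the 12 was called between the lines, and 1 passed at an unadjusted p of 0.05, which was AT1G27430. Its levels were 49.0, 33.9 and 47.1 CPM in gyf1 gyf2-2 and 32.2, 39.1 and 36.4 CPM in gyf1 gyf2-1, which overlap (log2 fold change 0.27 ± 0.12 SE, adjusted p = 0.618). It averaged 33.0 ± 2.91 CPM in gyf2, 47.6 ± 1.42 CPM in gyf1 and 43.9 ± 5.41 CPM in WT (SD, n = 3 each). AT1G24300 was at 36.7 ± 2.75 CPM in gyf1 gyf2-2 and 37.1 ± 1.64 CPM in gyf1 gyf2-1, against 48.1 ± 4.19 CPM in gyf2, 35.0 ± 0.647 CPM in gyf1 and 42.6 ± 8.16 CPM in WT. AT5G42950, the EXA1 gene, was at 88.3 ± 10.0 CPM in gyf1 gyf2-2 and 91.7 ± 11.4 CPM in gyf1 gyf2-1. Thus no GYF domain gene had a level that set the lines apart beyond the spread between libraries.

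Of the 48 called genes, 8 lie next to each other near the end of chromosome 2. They are all 8 tested genes from AT2G47580 to AT2G47650, at chr2:19517187-19541585 on TAIR10, a stretch of 24399 bases. All 8 were higher in gyf1 gyf2-2, by 0.73 to 1.08 on the log2 scale with a median of 0.99, and for 7 of them the 95% interval held a log2 change of 1. The same 8 genes were higher in gyf1 than in WT, by 0.80 to 1.09, and all were called there. In gyf2 against WT they differed by −0.14 to 0.04 and none was called. In gyf1 gyf2-1 against WT they differed by −0.37 to 0.06 and 2 were called, U1A and AT2G47610, both lower. Across the genotypes, then, the 8 genes stood at a high level in gyf1 gyf2-2 and gyf1 and at a lower one in gyf1 gyf2-1, gyf2 and WT, although gyf1 gyf2-1 is also labelled as carrying gyf1.

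The genes of the run have varied roles, although U1A and AT2G47640 both act in splicing. U1A encodes a protein of the U1 particle that recognises the start of introns, and AT2G47640 encodes an Sm protein of the splicing machinery. U1A had 41.8, 45.2 and 43.0 CPM in gyf1 gyf2-2 and 22.8, 20.4 and 20.6 CPM in gyf1 gyf2-1 (log2 fold change 1.03 ± 0.08 SE, adjusted p = 3.44e-09). AT2G47640 had 63.2, 71.6 and 58.5 CPM in gyf1 gyf2-2 and 34.2, 27.3 and 30.0 CPM in gyf1 gyf2-1 (1.08 ± 0.13, adjusted p = 0.000248). In both genes the lowest gyf1 gyf2-2 library was well above the highest gyf1 gyf2-1 library. AT2G47610 encodes a protein of the large ribosomal subunit. It had 592, 706 and 642 CPM in gyf1 gyf2-2 and 324, 293 and 310.4 CPM in gyf1 gyf2-1 (1.06 ± 0.07, adjusted p = 7.55e-11), against means of 363 ± 25.1 CPM in gyf2, 696 ± 30.6 CPM in gyf1 and 401 ± 14.7 CPM in WT. The gyf1 libraries of this gene had 705.0, 661.8 and 720.9 CPM and overlapped those of gyf1 gyf2-2.

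MHX exchanges magnesium and zinc for protons across the vacuolar membrane. It had 64.0, 54.3 and 61.1 CPM in gyf1 gyf2-2 and 31.2, 31.2 and 29.3 CPM in gyf1 gyf2-1 (log2 fold change 0.97 ± 0.07 SE), with 30.7 ± 1.36 CPM in gyf2, 58.3 ± 1.83 CPM in gyf1 and 31.5 ± 0.988 CPM in WT. Here the levels formed separate high and low sets with no library between them. PHR2 is a relative of blue-light photolyases, unconnected to the phosphate regulator PHR1 in spite of its name, and had 353, 376 and 374 CPM in gyf1 gyf2-2 and 189, 178 and 201 CPM in gyf1 gyf2-1 (0.96 ± 0.07). UXS4 makes UDP-xylose, a precursor of cell wall polysaccharides, and had 144, 128 and 143 CPM in gyf1 gyf2-2 and 72.0, 75.0 and 77.4 CPM in gyf1 gyf2-1 (0.88 ± 0.07). AT2G47630, an alpha/beta hydrolase gene, averaged 54.7 ± 1.28 CPM in gyf1 gyf2-2 and 27.1 ± 3.32 CPM in gyf1 gyf2-1 (SD, n = 3 each). SWI3A, a subunit of SWI/SNF chromatin remodelling complexes, rose least, with 28.4 ± 0.387 CPM in gyf1 gyf2-2 and 17.1 ± 0.921 CPM in gyf1 gyf2-1, and its interval of 0.56 to 0.90 did not reach 1. U1A overlaps an antisense transcript, which had no counts in any library, and the ends of AT2G47640 and UXS4 overlap on opposite strands. Whether the counting used strand is not stated in these sources.

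The calls stopped at both ends of the run among the genes tested, but its edges were not placed exactly. Of the 5 nearest tested genes on each side, none was called, and their log2 fold changes between the lines ranged from −0.46 to 0.42. On the left the nearest was AT2G47560, ending at position 19512728, with −0.46 ± 0.22 SE (adjusted p = 0.669), on the other side of 0 from the run. Between it and the run lies AT2G47570, with too few counts to be tested. Its summed counts were 7 in gyf1 gyf2-2 (5, 2 and 0 by library) and 9 in gyf1 (0, 5 and 4). They were 0 in gyf1 gyf2-1, 0 in gyf2 and 1 in WT. AT2G47570 was singled out for a sum above WT in gyf1 gyf2-2 but not in gyf1 gyf2-1. Its order of those genotypes is therefore no separate support for a longer run. On the right the nearest was AT2G47670, starting at 19543921, whose few counts gave a wide interval of −0.59 to 1.43. The next gene on the right, AT2G47680, had an interval of −0.41 to 0.11. The span of the run holds 10 annotated genes, and the 2 that were not tested are the antisense transcript and the gene of the microRNA MIR164a, which had no counts in the double mutant libraries. All 8 genes were called in each of the alternatives tried.

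**Figure D2:**
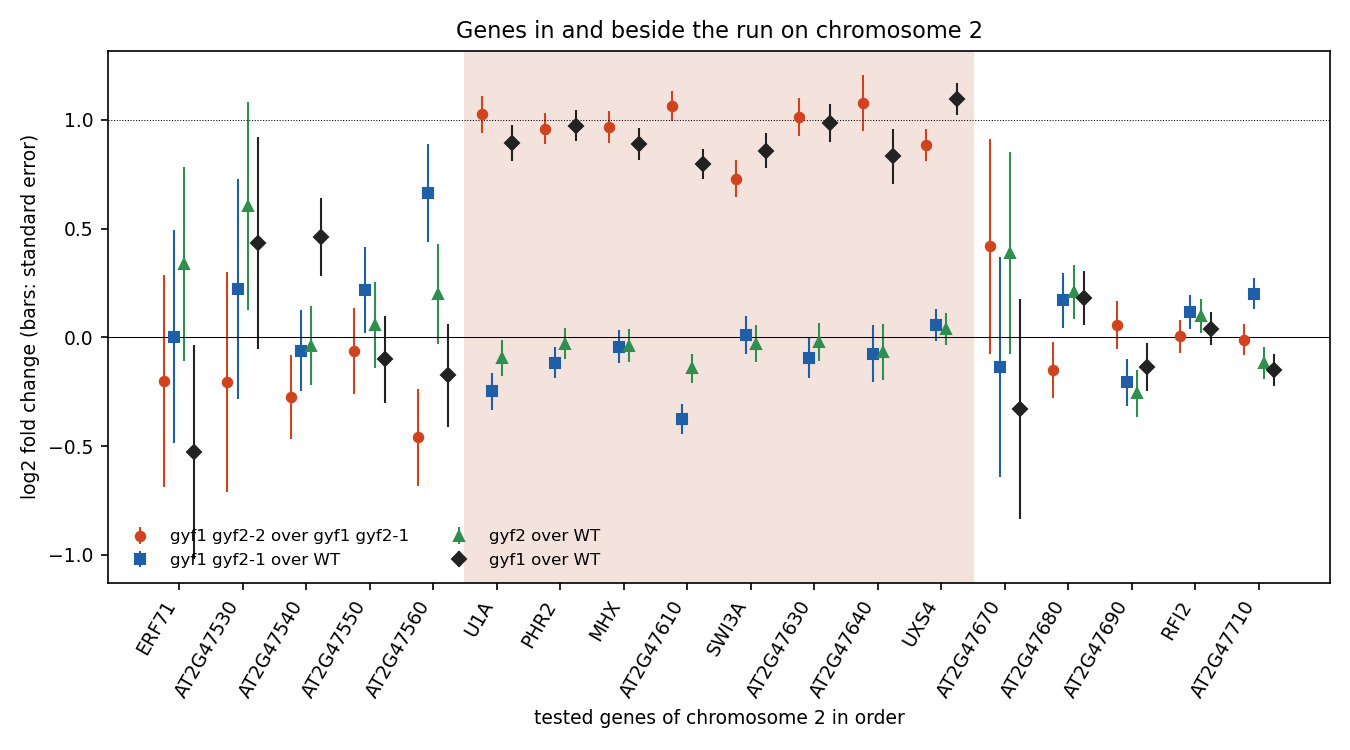
Log2 fold change (vertical axis, bars are standard errors) of successive tested genes on chromosome 2, in order along the horizontal axis. The shaded run of 8 genes lies near 1 for gyf1 gyf2-2 over gyf1 gyf2-1 and for gyf1 over WT, and near 0 for gyf1 gyf2-1 over WT and gyf2 over WT, while the 5 genes on each side were not called between the lines.

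Counting the run, the called genes were spread over the genome, with 9 on chromosome 1 (0.164% of its tested genes), 11 on chromosome 2 (0.353%), 12 on chromosome 3 (0.295%), 6 on chromosome 4 (0.19%), 9 on chromosome 5 (0.187%) and 1 in the plastid. Overlap with the single mutants was counted because those comparisons share no library with the one between the lines. With gyf1 against WT (108 genes called, 0.521%, with 0.405% higher and 0.116% lower), 15 of the 48 genes were shared, which is 31.2% of the 48 and 13.9% of the 108. Of these, 14 moved the same way and 8 are the run. With gyf2 against WT (519 called, 2.5%, with 1.99% higher and 0.516% lower), 5 were shared, 10.4% of the 48 and 0.963% of the 519, all moving the same way. The 5 are AT1G75945, AT1G09640, WRKY53, DR4 and AT5G35940.

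AT1G75945 was the gene that fell most among those called. It had 0.320, 0.148 and 0.0516 CPM in gyf1 gyf2-2 and 5.16, 3.77 and 4.20 CPM in gyf1 gyf2-1, or 10 against 231 counts in all, a log2 fold change of −4.63 ± 0.38 SE (adjusted p = 3.44e-09). In the other genotypes it was at 0.0807, 0 and 0.197 CPM in gyf2, and averaged 5.23 ± 0.479 CPM in gyf1 and 5.50 ± 0.916 CPM in WT. The gene was thus near 0 in gyf1 gyf2-2 and gyf2 and at the WT level in gyf1 gyf2-1 and gyf1. It lies at chr1:28515245-28515916 on the minus strand, is annotated as protein-coding, and has no description in the files. Its neighbour SKP1, a core subunit of SCF ubiquitin ligases, starting at 28516519, differed between the lines by 0.03 (95% interval −0.09 to 0.15), within a narrow range around 0.

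AT1G09640 encodes the gamma chain of translation elongation factor EF1B. It had 248, 248 and 259 CPM in gyf1 gyf2-2 and 148, 158 and 167 CPM in gyf1 gyf2-1 (log2 fold change 0.68 ± 0.06 SE, adjusted p = 4.77e-08). Its level was 276 ± 6.40 CPM in gyf2, 252 ± 9.78 CPM in gyf1 and 131 ± 7.15 CPM in WT (SD, n = 3 each). So gyf1 gyf2-2 stood with both single mutants, which were each called above WT, and gyf1 gyf2-1 stood nearer WT, at 0.27 above it (adjusted p = 0.0021). AT5G35940, a mannose-binding lectin gene, had a like order, with 4.81 ± 0.422 CPM in gyf1 gyf2-2, 2.34 ± 0.6003 CPM in gyf1 gyf2-1, 6.04 ± 0.678 CPM in gyf2, 5.33 ± 0.913 CPM in gyf1 and 0.789 ± 0.326 CPM in WT. Its call between the lines (1.03 ± 0.22, adjusted p = 0.0362) was lost when any of 5 of the 6 line libraries was left out, gyf1 gyf2-1 replicate 1 being the exception, with an adjusted p of up to 0.310.

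AT5G26270, a transmembrane protein gene, had 21.5, 19.9 and 25.7 CPM in gyf1 gyf2-2 and 11.1, 13.3 and 10.6 CPM in gyf1 gyf2-1 (log2 fold change 0.94 ± 0.13 SE, adjusted p = 0.000151). In gyf1 it was also above WT, with 18.18 ± 3.35 CPM against 8.46 ± 1.03 CPM, while gyf2 was at 10.0 ± 0.807 CPM. TIP2;3, a water channel of the vacuolar membrane, was the 1 shared gene that moved the opposite way. It was lower in gyf1 gyf2-2 than in gyf1 gyf2-1, with 13.7, 16.0 and 17.0 CPM against 23.98, 23.5 and 28.6 CPM (−0.71 ± 0.12, adjusted p = 0.00482), and higher in gyf1 than in WT, with 13.7 ± 2.52 CPM against 9.20 ± 0.677 CPM. All 3 gyf1 gyf2-2 libraries were below every gyf1 gyf2-1 library, and this call was lost without gyf1 gyf2-1 replicate 3 (adjusted p = 0.0936) or gyf1 gyf2-2 replicate 1.

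**Figure D3:**
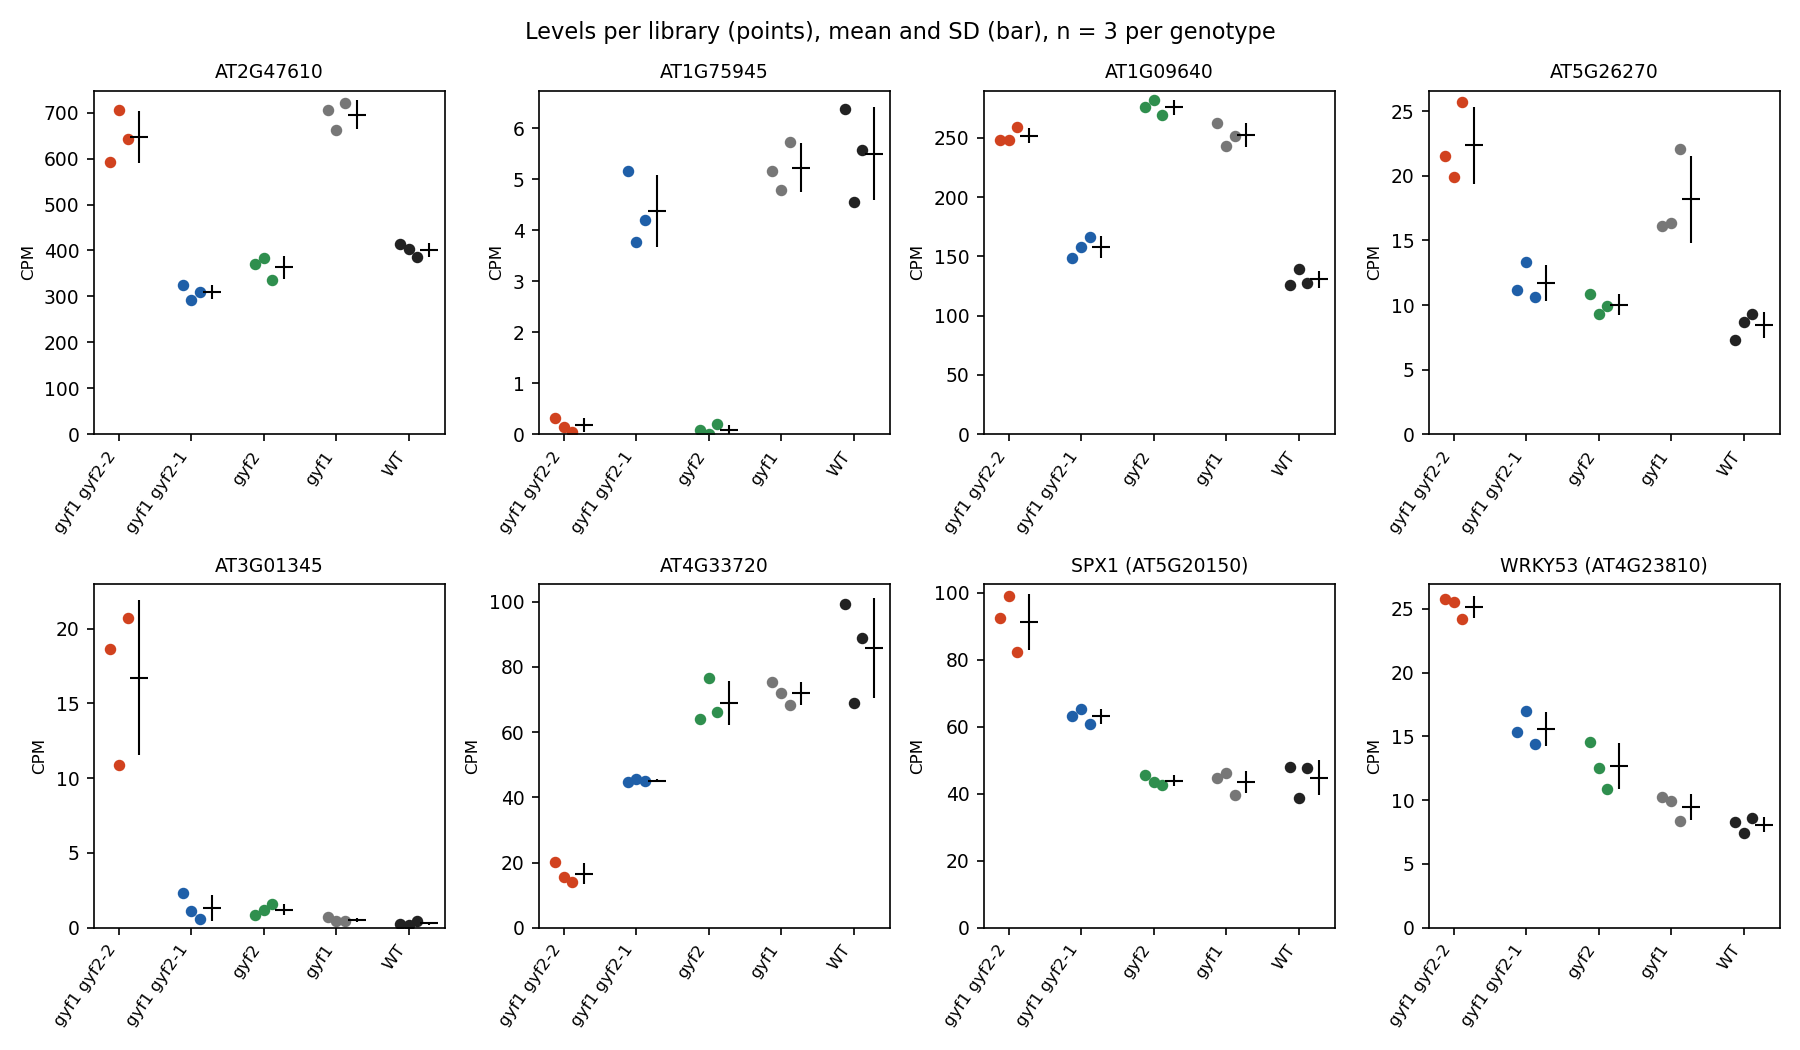
Levels in CPM (vertical axes, from 0) of 8 genes in each library, by genotype, with mean and SD beside the points (n = 3 each). AT2G47610 and AT5G26270 were high in gyf1 gyf2-2 and gyf1, AT1G75945 was near 0 in gyf1 gyf2-2 and gyf2, AT1G09640 was low in gyf1 gyf2-1 and WT, and AT3G01345, AT4G33720, SPX1 and WRKY53 were most extreme in gyf1 gyf2-2.

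The gene with the largest rise among those called, AT3G01345, is described in the files only as an expressed protein. It had 18.6, 10.9 and 20.7 CPM in gyf1 gyf2-2 and 2.30, 1.096 and 0.560 CPM in gyf1 gyf2-1 (log2 fold change 3.65 ± 0.33 SE, adjusted p = 2.14e-06). Its mean was 1.205 ± 0.363 CPM in gyf2, 0.548 ± 0.138 CPM in gyf1 and 0.302 ± 0.114 CPM in WT, so that the high level was seen in gyf1 gyf2-2 alone among these genotypes. Among weakly expressed genes, the noncoding RNA AT2G06995 had 1.28, 1.43 and 1.24 CPM in gyf1 gyf2-2 and 0.220, 0.365 and 0.112 CPM in gyf1 gyf2-1 (2.49 ± 0.47, adjusted p = 0.0108). Its call was lost without any 1 of gyf1 gyf2-2 replicate 2 and gyf1 gyf2-1 replicates 1 and 3, with an adjusted p of up to 0.190. A further noncoding RNA, AT4G04223, averaged 7.23 ± 1.15 CPM in gyf1 gyf2-2 and 3.63 ± 0.924 CPM in gyf1 gyf2-1, and 3 of the 6 single-library omissions ended its call.

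Among the phosphate starvation genes, 35 of 36 were tested, and 4 were called, all higher in gyf1 gyf2-2 (background 0.159% of tested genes called higher). They were SPX1, PS2, PEPC1 and SRG3. All tested members of this list are given because earlier results of these data gave the lines different medians for such a list. Its shares therefore come from the data that led to the choice and are no separate support. At an unadjusted p below 0.05, 15 of the 35 were higher (background 3.98%) and 0 lower, 29 lay above 0 (background 51.6%), and the list's median log2 fold change was 0.15, against 0.01 over all genes. Summed over the list, levels were 1898 to 2086 CPM in gyf1 gyf2-2, 1795 to 1853 CPM in gyf1 gyf2-1 and 1396 to 1502 CPM in WT, with no overlap between these genotypes. Side by side against WT, 25 of the 35 were called higher and 1 lower in gyf1 gyf2-2 (median 0.47), and 21 higher and 0 lower in gyf1 gyf2-1 (median 0.35).

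In 2 of the 4 called genes, SRG3 and PS2, the 300 bases before the annotated start hold the PHR1 binding element, and their promoter stretches are shown because they carry the element beside a measured rise. The sequences are from the RefSeq genome TAIR10.1, in which 32532 of 32548 matched genes (99.95%) had the start and end given in the files. Both are minus-strand genes, each stretch is read 5′ to 3′ on the strand of its gene, and capitals mark the element, searched as GNATATNC, which is its own reverse complement.
SRG3, chr3:350046-350193: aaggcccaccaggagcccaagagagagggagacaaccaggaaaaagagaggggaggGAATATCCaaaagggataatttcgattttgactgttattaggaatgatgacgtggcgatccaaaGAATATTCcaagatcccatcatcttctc
PS2, chr1:27466502-27466621: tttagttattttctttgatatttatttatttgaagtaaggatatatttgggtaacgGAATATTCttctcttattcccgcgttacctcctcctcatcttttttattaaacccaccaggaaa
SRG3 has the element 127 and 63 bases before its start, and PS2 217 bases before. Of all 27418 protein-coding promoters of this length, 6.499% hold it, as do 6.589% of the 20217 whose genes were tested, 9 of the 35 of the phosphate list (25.71%) and 3 of the 28 of genes called higher. These are matches of letters, and whether PHR1 binds there was not measured.

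SPX1 encodes a phosphate sensor that restrains PHR1. It had 92.4, 99.0 and 82.5 CPM in gyf1 gyf2-2 and 63.4, 65.2 and 60.7 CPM in gyf1 gyf2-1 (log2 fold change 0.53 ± 0.08 SE, adjusted p = 0.000559), and 44.8 ± 5.26 CPM in WT. The gyf1 gyf2-1 libraries thus lay between those of gyf1 gyf2-2 and WT, and leaving out any line library kept the call, with an adjusted p of up to 0.0127. In the single mutants SPX1 was at 43.9 ± 1.6 CPM in gyf2 and 43.5 ± 3.37 CPM in gyf1, near WT. Of its relatives, SPX3 had 5.44, 5.24 and 3.095 CPM in gyf1 gyf2-2 and 2.30, 3.04 and 2.19 CPM in gyf1 gyf2-1 (0.87 ± 0.31, adjusted p = 0.468), and SPX2 differed by 0.19 ± 0.09. PHR1 itself, known to be regulated mainly at the protein level, was at 48.3 ± 2.23 CPM in gyf1 gyf2-2, 47.1 ± 2.49 CPM in gyf1 gyf2-1 and 48.1 ± 0.978 CPM in WT.

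PS2 and PEPC1 encode related phosphatases, the second known for releasing phosphate from phosphoethanolamine and phosphocholine. PS2 had 26.3, 30.7 and 20.1 CPM in gyf1 gyf2-2 and 13.7, 15.4 and 15.0 CPM in gyf1 gyf2-1 (log2 fold change 0.81 ± 0.15 SE, adjusted p = 0.0133), with 9.34 ± 1.97 CPM in WT. PEPC1 had 14.1, 18.4 and 11.2 CPM in gyf1 gyf2-2 and 6.64, 7.73 and 9.25 CPM in gyf1 gyf2-1 (0.89 ± 0.17, adjusted p = 0.0138), with 4.78 ± 0.986 CPM in WT. In both the highest library was gyf1 gyf2-2 replicate 2, which stood apart. SRG3 encodes a glycerophosphodiester phosphodiesterase, which frees glycerol phosphate from lipid head groups. It had 66.9, 68.3 and 63.9 CPM in gyf1 gyf2-2 and 49.3, 52.5 and 53.7 CPM in gyf1 gyf2-1 (0.36 ± 0.08, adjusted p = 0.0362), with 25.0 ± 1.78 CPM in WT. These 3 calls did not hold up against leaving out libraries. PS2 was lost without any of the line libraries but gyf1 gyf2-2 replicate 3, PEPC1 without replicate 1 or 2 of either line, and SRG3 without any of the 6, with adjusted p-values of up to 0.112, 0.191 and 0.174, in each case without gyf1 gyf2-2 replicate 2, and none of the 3 was called without both libraries that stood apart.

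The other members were not called, and their values are given by role. Among transporters, PHT1;5 differed by 0.96 ± 0.43 SE at a low level (1.19 ± 0.182 CPM in gyf1 gyf2-2 and 0.598 ± 0.391 CPM in gyf1 gyf2-1), PHT1;4 by 0.17 ± 0.08, and the main uptake transporter PHT1;1 by −0.16 ± 0.11, while PHO1, which loads phosphate into the xylem, differed by 0.06 ± 0.08. Among genes of lipid remodelling, MGDC and MGD2, which make galactolipids in place of phospholipids, differed by 0.60 ± 0.21 and 0.52 ± 0.15, and SQD2, for sulfolipids, by 0.25 ± 0.07 (adjusted p = 0.258). The noncoding RNA IPS1, which sequesters a microRNA that acts on PHO2, had 9.44, 10.0 and 6.71 CPM in gyf1 gyf2-2 and 6.20, 4.32 and 6.72 CPM in gyf1 gyf2-1 (0.60 ± 0.22, adjusted p = 0.488), with libraries that overlapped. The acid phosphatase PAP17 differed by 0.28 ± 0.08 and the ribonuclease RNS1 by 0.57 ± 0.26. The 1 untested member, NPC5, had no counts in either line. Growth conditions were the same for all genotypes per the labels, and phosphate in the tissue was not measured in these files.

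**Figure D4:**
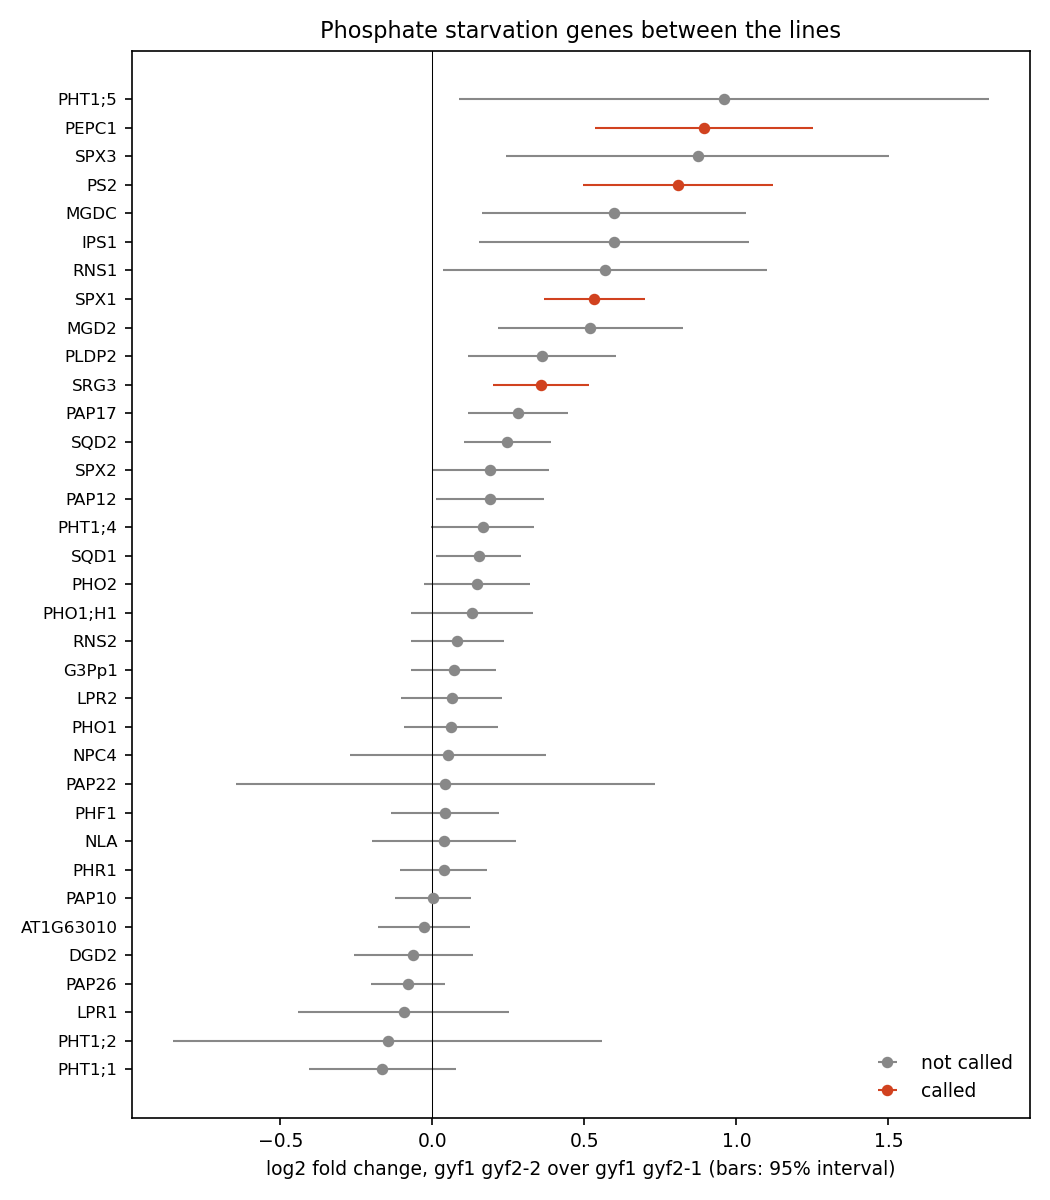
Log2 fold change of gyf1 gyf2-2 over gyf1 gyf2-1 (horizontal axis, bars are 95% intervals) of the 35 tested phosphate starvation genes, ordered by value. The 4 called genes are coloured, and 29 of the 35 lie above 0.

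Of 33 tested genes of pattern-triggered immunity, the response to microbial molecules, 1 was called higher (background 0.159%) and 0 lower, 7 were higher at an unadjusted p below 0.05 (background 3.98%) and 0 lower, and the median was 0.09. It was WRKY53, a transcription factor of defence and leaf senescence, with 25.8, 25.5 and 24.2 CPM in gyf1 gyf2-2 and 15.4, 17.0 and 14.4 CPM in gyf1 gyf2-1 (log2 fold change 0.69 ± 0.11 SE, adjusted p = 0.00107). Its levels were 12.7 ± 1.83 CPM in gyf2, 9.50 ± 1.02 CPM in gyf1 and 8.09 ± 0.614 CPM in WT, so the libraries of gyf1 gyf2-2 were above those of every other genotype. The gene overlaps another on the opposite strand, as do AT1G09640 and SRG3. Of 31 genes of salicylic acid and systemic immunity, 0 were called, 10 were higher at an unadjusted p below 0.05 (background 3.98%) and 30 lay above 0 (background 51.6%), with a median of 0.20. Among those 10 were WRKY38 (0.80, adjusted p = 0.378) and PAD4 (0.26, adjusted p = 0.403), a central immune regulator. Summed over the list, the lines overlapped, with 1329 to 1689 CPM in gyf1 gyf2-2 and 1146 to 1574 CPM in gyf1 gyf2-1.

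The next called genes belong to none of the lists and were grouped by annotation after their values were seen, with no test of the group. XBAT34, a putative ubiquitin ligase gene, had 84.0, 78.8 and 85.3 CPM in gyf1 gyf2-2 and 62.0, 64.8 and 50.8 CPM in gyf1 gyf2-1 (log2 fold change 0.48 ± 0.08 SE, adjusted p = 0.00223), and its call was lost only without gyf1 gyf2-1 replicate 3 (adjusted p = 0.0635). HR4, a relative of the mildew resistance gene RPW8, averaged 301 ± 3.61 CPM in gyf1 gyf2-2 and 237 ± 20.8 CPM in gyf1 gyf2-1 (0.34 ± 0.08). The defensin-like genes AT5G33355, AT3G59930 and AT2G36255 were higher by 1.01 ± 0.17, 0.56 ± 0.11 and 1.49 ± 0.33. All 3 had the order gyf1 gyf2-2, gyf1 gyf2-1, WT, as in AT5G33355 with 44.2 ± 12.0, 21.9 ± 3.81 and 5.46 ± 1.18 CPM. Defensins form a multigene family, between whose copies reads could be split. DR4, a Kunitz trypsin inhibitor, had 349 ± 23.5 CPM in gyf1 gyf2-2, 269 ± 21.3 CPM in gyf1 gyf2-1, 222 ± 13.7 CPM in gyf2, 209 ± 7.30 CPM in gyf1 and 168 ± 16.7 CPM in WT. The calls of the other 5 were likewise lost without gyf1 gyf2-1 replicate 3, with adjusted p-values of 0.0559 for AT5G33355, 0.242 for AT3G59930 and DR4, 0.576 for AT2G36255 and 0.608 for HR4. Of the 6 single-library omissions, 1 ended the call of AT5G33355, 3 that of DR4, 4 that of AT3G59930 and 5 those of AT2G36255 and HR4.

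AT4G33720 was lower in gyf1 gyf2-2. It belongs to the secreted family of pathogenesis-related protein PR1, and had 20.2, 15.5 and 14.1 CPM in gyf1 gyf2-2 and 44.7, 45.7 and 45.1 CPM in gyf1 gyf2-1 (log2 fold change −1.45 ± 0.13 SE, adjusted p = 5.22e-06). Its levels were 68.9 ± 6.70 CPM in gyf2, 71.9 ± 3.49 CPM in gyf1 and 85.7 ± 15.3 CPM in WT, and it was called below WT in each line, by 2.37 in gyf1 gyf2-2 and by 0.93 in gyf1 gyf2-1. AT4G16260, a probable glucanase of the cell wall, had 165, 151 and 167 CPM in gyf1 gyf2-2 and 200.3, 226 and 216 CPM in gyf1 gyf2-1 (−0.41 ± 0.07, adjusted p = 0.00223). AT5G62360, a pectin methylesterase inhibitor gene, had 8.64, 9.98 and 7.58 CPM in gyf1 gyf2-2 and 15.7, 14.6 and 13.4 CPM in gyf1 gyf2-1 (−0.73 ± 0.12, adjusted p = 0.000968). In both, gyf1 gyf2-1 was near WT, which averaged 210.0 ± 13.1 and 17.0 ± 0.519 CPM, and gyf1 gyf2-2 was below it. GRP3S, a glycine-rich cell wall protein, was above WT in both lines, yet lower in gyf1 gyf2-2 of the pair. It had 1887, 1741 and 1780.0 CPM in gyf1 gyf2-2 and 2321, 2233 and 2348 CPM in gyf1 gyf2-1 (−0.35 ± 0.06, adjusted p = 0.00249), against 949 ± 25.5 CPM in WT.

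Among genes at low levels, 2 more that encode extracellular or membrane proteins were lower in gyf1 gyf2-2. The extensin-like gene AT1G26250 had 0.480, 0.148 and 0.310 CPM in gyf1 gyf2-2 and 1.04, 1.64 and 1.74 CPM in gyf1 gyf2-1 (log2 fold change −2.23 ± 0.45 SE, adjusted p = 0.0177), and overlaps a gene on the opposite strand. The receptor kinase gene AT3G21340 had 0.480, 0.692 and 0.722 CPM in gyf1 gyf2-2 and 1.43, 1.64 and 2.75 CPM in gyf1 gyf2-1 (−1.61 ± 0.33, adjusted p = 0.0221). Each of these calls ended in 4 of the 6 single-library omissions, with adjusted p-values of 0.195 and 0.464 without gyf1 gyf2-1 replicate 3. AT5G40590, which encodes a protein with cysteine- and histidine-rich C1 domains, fell by 0.82 ± 0.16, and AT5G62865, which has no description, fell by 0.82 ± 0.15. Both calls were lost without gyf1 gyf2-2 replicate 2 and without both libraries that stood apart, and AT5G40590 reached an adjusted p of 0.156 and AT5G62865 one of 0.123 with a library left out.

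The next 4 called genes encode transporters or a metal chelator enzyme and were grouped by annotation after their values were seen, with no test of the group. CAX3, a vacuolar exchanger of calcium and protons, had 63.7, 55.3 and 60.2 CPM in gyf1 gyf2-2 and 47.6, 43.7 and 43.5 CPM in gyf1 gyf2-1 (log2 fold change 0.41 ± 0.09 SE, adjusted p = 0.0362). NAS3 makes nicotianamine, a chelator of iron and other metals, and had 22.1, 22.0 and 21.5 CPM in gyf1 gyf2-2 and 16.2, 14.0 and 14.2 CPM in gyf1 gyf2-1 (0.56 ± 0.10, adjusted p = 0.00702). MTPA2, a zinc transporter of the vacuole, was lower, with 4.37, 5.29 and 6.09 CPM in gyf1 gyf2-2 and 8.18, 8.58 and 9.13 CPM in gyf1 gyf2-1 (−0.72 ± 0.16, adjusted p = 0.0471). AMT1;3, which takes up ammonium in roots, was also lower, with 22.0, 19.2 and 24.04 CPM in gyf1 gyf2-2 and 30.8, 31.3 and 31.7 CPM in gyf1 gyf2-1 (−0.52 ± 0.11, adjusted p = 0.0246). In none of the 4 did the lines overlap, as in all 48 called genes (background 12.5% of tested genes). Leaving out gyf1 gyf2-1 replicate 3 ended each call, with adjusted p-values of 0.0852 for NAS3, 0.304 for CAX3 and 0.316 for MTPA2. AMT1;3 reached 0.199 without gyf1 gyf2-2 replicate 2. In the list of 21 tested iron genes 0 were called, 6 were lower at an unadjusted p below 0.05 (background 3.45%), and the median was −0.21. IRT1, the main iron uptake transporter of roots, differed by −1.08 (adjusted p = 0.167) and FRO2, the root iron reductase, by −1.02 (adjusted p = 0.449). Summed, the iron genes were at 881 to 957 CPM in gyf1 gyf2-2 and 1008 to 1063 CPM in gyf1 gyf2-1. WT, at 934 to 1025 CPM, overlapped both. Against WT, 1 of the 21 was called higher and 3 lower in gyf1 gyf2-2 (median −0.03). In gyf1 gyf2-1, 7 were called higher and 2 lower (median 0.24).

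In metabolism, 1 of 21 tested genes of aliphatic glucosinolate synthesis was called lower (background 0.0724% of tested genes) and 0 higher. CYP79F1, which starts the pathway from chain-elongated methionine, had 76.5, 83.9 and 81.7 CPM in gyf1 gyf2-2 and 100.3, 95.9 and 108 CPM in gyf1 gyf2-1 (log2 fold change −0.33 ± 0.07 SE, adjusted p = 0.0209), with 126 ± 5.20 CPM in WT. At an unadjusted p below 0.05, 8 of the 21 were lower (background 3.45%). The related P450 gene CYP706A6 fell by 0.38 ± 0.08 and FLS5, a probable flavonol synthase, by 0.41 ± 0.07, with 71.6, 68.5 and 75.6 CPM in gyf1 gyf2-2 and 97.0, 94.7 and 95.5 CPM in gyf1 gyf2-1. PYD4, an aminotransferase named for pyrimidine breakdown, rose by 0.67 ± 0.13, with 27.7 ± 1.86 CPM in gyf1 gyf2-2, 17.38 ± 2.39 CPM in gyf1 gyf2-1 and 7.26 ± 1.88 CPM in WT. AT1G08310, an alpha/beta hydrolase gene that overlaps its neighbours, rose by 0.88 ± 0.17. Of these, FLS5 was lost without gyf1 gyf2-2 replicate 2 (adjusted p = 0.0553), and CYP79F1, CYP706A6, PYD4 and AT1G08310 without gyf1 gyf2-1 replicate 3 (adjusted p = 0.304, 0.608, 0.242 and 0.214).

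Besides the run on chromosome 2, 3 of 7 successive tested genes were called on chromosome 3, at chr3:14082640-14200076. The 18S ribosomal RNA gene AT3G41768 had 885, 1105 and 1061 CPM in gyf1 gyf2-2 and 813, 729.6 and 776 CPM in gyf1 gyf2-1 (log2 fold change 0.40 ± 0.07 SE, adjusted p = 0.01). The noncoding RNA AT3G06355 beside it had 36.2, 30.3 and 36.3 CPM in gyf1 gyf2-2 and 25.1, 23.1 and 20.7 CPM in gyf1 gyf2-1 (0.58 ± 0.11, adjusted p = 0.0124). AT3G33528, which has no description, had 1.12, 2.57 and 2.22 CPM in gyf1 gyf2-2 and 0.220, 0.183 and 0.224 CPM in gyf1 gyf2-1 (3.20 ± 0.61, adjusted p = 0.0124). Ribosomal RNA genes exist in many copies, so where their reads were placed is uncertain, and rRNA took 0.103 to 0.132% of counts in gyf1 gyf2-2 and 0.0882 to 0.0943% in gyf1 gyf2-1. That share includes AT3G41768 itself, so it is no separate measure of the libraries. Each of the 3 calls was lost in 4 or 5 of the 6 single-library omissions, with adjusted p-values of up to 0.13, 0.19 and 0.125. A plastid rRNA gene, ATCG00920, was higher by 1.02 ± 0.23 at 4.02 ± 0.911 CPM in gyf1 gyf2-2 and 1.98 ± 0.151 CPM in gyf1 gyf2-1 (adjusted p = 0.0492), a call lost in 5 of the 6 omissions, with an adjusted p of up to 0.325.

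Of the 515 tested genes in the 28 gene lists examined, 6 were called between the lines (background 0.232% of all tested genes): the 4 phosphate genes, WRKY53 and CYP79F1. The 26 tested genes of sugar starvation had a median of 0.00 between the lines with 0 called and 2 lower at an unadjusted p below 0.05, although 24 of the 26 were called higher in each line against WT. Photosynthesis genes were spread tightly between the lines, from −0.09 to 0.13 over 32 genes, with 0 called. For the small RNA pathway, DNA methylation, mRNA decay and cap binding, cell cycle, circadian clock, auxin, nitrate, jasmonate, ethylene-jasmonate defence, cold, heat, hypoxia, touch, abscisic acid, indolic glucosinolate, flavonoid and phosphocholine lists, 0 members were called, and medians lay between −0.09 and 0.18. At an unadjusted p below 0.05 (background 3.98% higher and 3.45% lower), 4 of 18 jasmonate genes were higher and 1 lower, 1 of 18 nitrate genes higher and 4 lower, 2 of 15 hypoxia genes higher and 3 lower, and 0 of 23 DNA methylation genes higher and 3 lower. The rest of these lists had 0 to 2 genes in either direction. Of the DNA methylation genes, 19 of 23 lay below 0. Over these lists without a called member, the nearest to a call were LOX4 (0.62, adjusted p = 0.0506) and JAZ1 (0.34, adjusted p = 0.0756), both of the jasmonate list. Outside them, MAM1 of the aliphatic glucosinolate list was at −0.29 (adjusted p = 0.0645).

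**Figure D5:**
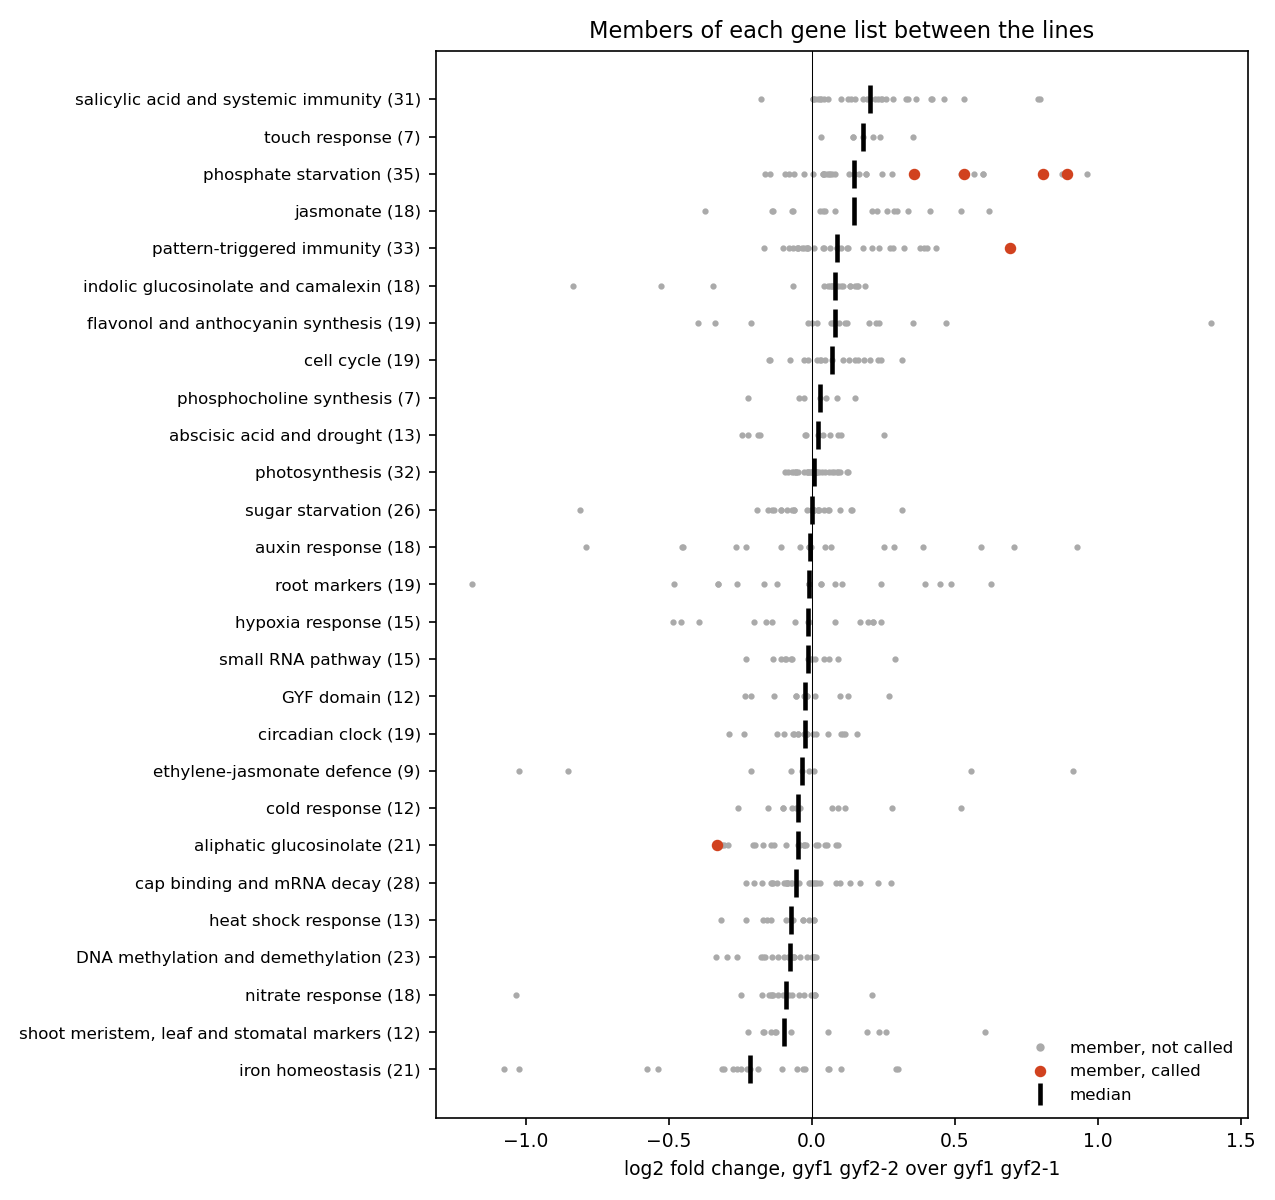
Log2 fold change of gyf1 gyf2-2 over gyf1 gyf2-1 (horizontal axis) of the tested members of each gene list (rows, with the number tested), ordered by median (black bar). Coloured points are the 6 called members: 4 of phosphate starvation, WRKY53 and CYP79F1.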

How the data were processed

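The authors deposited a table of read counts per gene and of FPKM values for 15 libraries of Arabidopsis seedlings. Reads were aligned with HISAT2 2.0.4 and counted with HTSeq 0.6.1p1, per the submitters' processing notes, and coordinates are those of TAIR10. Libraries were strand-specific per the labels, and whether the counting used strand is not stated in these sources.

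Counts were tested in edgeR 4.0.16 (R 4.3.3) with the robust quasi-likelihood F test in 1 fit of all 15 libraries, after filterByExpr and TMM scaling, with Benjamini-Hochberg adjustment over 20721 genes and a threshold of 0.05. CPM values use TMM-scaled library sizes. On simulated data of 20721 genes for the comparison between the lines, 71% of 100 genes changed 1.5-fold and 98% of 100 changed 2-fold were recovered. All of these had a mean count of at least 50. A further 17 genes that had not been changed were called falsely, a number to be read beside the genes recovered. Alternatives were DESeq2 1.42.0, limma 3.58.1 on log2(FPKM + 0.1), other scaling, filter and sample sets, a replicate block, and each library left out. Precision rests on 16567801 to 24681140 counts per library.

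The members and gene lists were chosen with earlier results of these data known. Genes were named by rule: the largest rises and falls without overlap, among called genes above and below a mean log2 CPM of 1; called list members of lowest adjusted p; called genes of runs; and GYF domain and phosphate genes. The rule named 39 of the 48 called genes, and the other 9 (AT1G09640, XBAT34, NAS3, AT1G08310, DR4, PYD4, AT3G59930, CAX3 and HR4) were named after their values were seen.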

Additional observations from a re-analysis of the deposited data

Results flagged for a closer look

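AT2G47570 lies beside the run on chromosome 2, at chr2:19515764-19516922, and had too few counts to be tested. It had 7 counts in all in gyf1 gyf2-2 and 0 in gyf1 gyf2-1, with 0 in gyf2, 9 in gyf1 and 1 in WT. It drew attention because the gyf1 gyf2-2 sum is above the 3 counts that a count of 0 allows, in a gene the comparisons do not use. The search also required that sum to be above WT and the gyf1 gyf2-1 sum not to be. Counts by library were 5, 2 and 0 in gyf1 gyf2-2 and 0, 5 and 4 in gyf1.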

How the results depend on the processing

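The 8 genes of the run on chromosome 2 were called under every alternative. DESeq2 and the replicate block each kept all 48 calls, the fit of the 6 double mutant libraries kept 44, leaving out both libraries that stood apart kept 29, and limma on log2(FPKM + 0.1) kept 24. Same-numbered libraries did not deviate together (correlations −0.06, −0.03 and 0.03), so the replicate block is given here alone, with 69 calls between the lines. The total of 48 became 26 with limma on FPKM and 21 to 58 with a library left out (21, 27 and 30 without gyf1 gyf2-1 replicate 3, gyf1 gyf2-2 replicate 2 and gyf1 gyf2-1 replicate 2). The 33 higher calls became 16 with limma and 14 to 37 with a library left out (14 to 21 without gyf1 gyf2-2 replicate 1 or 2 or gyf1 gyf2-1 replicate 2 or 3). The 15 lower calls became 25 with no filter, 30 with the replicate block, 29 with DESeq2, 9 without both libraries that stood apart, and 7 to 22 with a library left out (7 without gyf1 gyf2-1 replicate 3 or gyf1 gyf2-2 replicate 2). The 6 called list members became 10 with DESeq2, 2 without both libraries that stood apart, 2 with limma, and 2 to 8 with a library left out (2 or 3 without gyf1 gyf2-2 replicate 1 or 2 or gyf1 gyf2-1 replicate 2 or 3). For gyf1 against WT, the 108 calls became 192 with the replicate block and 168 with DESeq2, the 84 higher became 144 with the block, and the 24 lower became 48 with the block, 45 with DESeq2, 10 with limma and 10 to 33 with a library left out (10 to 15 without WT replicate 1 or 3, gyf1 replicate 2 or 3, or gyf1 gyf2-2 replicate 3). The 107 lower calls of gyf2 against WT became 205 with the block, 161 without both libraries that stood apart, and 48 to 132 with a library left out (48 and 59 without gyf2 replicates 2 and 3). The 2429 lower calls of gyf1 gyf2-1 against WT became 1521 to 2471 with a library left out, the lowest without gyf1 gyf2-1 replicate 2. Leaving out the WT, gyf1 and gyf2 libraries was chosen after seeing the data. The cause of these shifts was not tested. Of the values of 91 single genes, 1810 stayed on their side of the threshold and 192 lost their call. Among these 91 genes, none called in the main fit or in an alternative changed direction between them. Genes outside the 91 were not checked for direction. Changes of direction in genes called in neither were not counted. The 95% interval of a difference reached a median of 0.24 either side on the log2 scale, which reflects both depth and the spread between 3 libraries per line, and the smallest called change was 0.33 (CYP79F1).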
